A study of Mus musculus with 10 samples.

Results

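The genes described here are those through which a mouse cell makes, takes up, moves and exports cholesterol. They were taken as a list of 30 mouse gene symbols, with no threshold on their values beyond a minimum level; of these, 29 were found among the 28987 genes listed and are described, and Hmgcs1 is not analysed here. All 29 stood at 1 TPM or more (TPM is a share of the transcripts of a library, scaled for transcript length) in at least 2 libraries and were among the 14166 genes tested. They fall into 4 roles. The first 3 are 17 enzymes of synthesis, 4 genes that control the transcription factor SREBP-2, and 4 genes of uptake and intracellular transport. The last role is efflux, with 4 genes: the exporters Abca1 and Abcg1, and Nr1h3 and Nr1h2, which encode receptors that raise them. The study measured RNA in 10 libraries of cultured mouse cells labelled as inguinal primary white adipocytes, in 5 groups of 2 libraries. The groups received, for 24 h, saline, the recombinant TNF-family ligand BAFF at 500 ng/ml, its relative APRIL at 500 ng/ml, bacterial lipopolysaccharide (LPS) at 100 ng/ml, or norepinephrine at 1 mM. The cells came from collagenase- and dispase-digested inguinal fat of male C57BL/6 mice aged 6 to 8 weeks and were grown to confluence, in every group alike. Part of the descriptive text speaks of adipose tissue and the source label of adipocytes. The labels leave unsaid whether the libraries within a group are separate animals or cultures; p-values here thus cover only the spread among these samples, which may be technical.

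Cholesterol is built from acetyl-CoA through mevalonate, isoprenoid diphosphates, squalene and lanosterol. When membrane sterol is low, SCAP carries SREBP-2 from the endoplasmic reticulum to the Golgi, where it is cut to release a transcription factor for the synthesis and uptake genes. When sterol is plentiful, the INSIG proteins hold SCAP back, and oxysterols activate the liver X receptors (LXR), which raise the exporters ABCA1 and ABCG1. Fat cells hold a large store of free cholesterol at the surface of their lipid droplets and export part of it through these transporters.

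Both libraries labelled APRIL were unlike the remaining 8. Across genes they correlated with the others at 0.85 to 0.886, against 0.948 to 0.991 among the other 8, and their summed TPM of Y-linked genes was 0.489 and 0.775 against 93.8 to 123 elsewhere, although all mice are labelled male. Results are therefore given with and without them, and they are called the libraries labelled APRIL throughout. The adipocyte markers Fabp4 (1792 to 11802 TPM) and Adipoq (100.3 to 1097 TPM) were present in every library, whereas Plin1, which coats lipid droplets, stood at only 0.781 to 15.3 TPM. Macrophage markers were present too: their sum ran from 336 to 1847 TPM, although Ptprc, which marks blood-derived cells, was at or near 0. The files hold no counts, so sequencing depth is unknown. In such bulk libraries, fewer cells of a type and less RNA per cell cannot be told apart.

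Promoter sequences of 8 of these genes are shown as a description of their start regions. A link between these sequences and the levels was not tested. Each line gives 120 bases, free of annotated exons, from the 250 before the RefSeq start of the gene (build GRCm38.p6), 5′ to 3′ on the gene's strand, with the CCAAT box, read as CCAAT or its reverse complement ATTGG, in capitals. CCAAT is the sequence bound by NF-Y, a factor known to act with SREBP-2 at sterol genes. The first 5 genes are enzymes or INSIG1, and the last 3 have no CCAAT box in the stretch shown.
Mvk (plus strand, chr5:114444149-114444268): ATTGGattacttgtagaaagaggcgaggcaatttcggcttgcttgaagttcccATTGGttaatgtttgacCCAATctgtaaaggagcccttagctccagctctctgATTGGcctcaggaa
Mvd (minus strand, chr8:122443423-122443542): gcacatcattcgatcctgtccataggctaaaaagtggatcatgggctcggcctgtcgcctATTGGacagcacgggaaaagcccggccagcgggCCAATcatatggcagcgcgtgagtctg
Lss (plus strand, chr10:76531468-76531587): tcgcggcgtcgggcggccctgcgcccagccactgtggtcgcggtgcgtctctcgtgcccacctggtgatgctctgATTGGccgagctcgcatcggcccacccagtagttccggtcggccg
Ebp (minus strand, chrX:8193513-8193632): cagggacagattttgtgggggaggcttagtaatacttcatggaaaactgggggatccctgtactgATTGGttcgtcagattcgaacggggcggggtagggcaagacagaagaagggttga
Insig1 (plus strand, chr5:28071162-28071281): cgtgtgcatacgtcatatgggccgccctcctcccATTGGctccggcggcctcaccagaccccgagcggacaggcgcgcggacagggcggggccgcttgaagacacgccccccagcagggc
Acat2 (minus strand, chr17:12960748-12960867): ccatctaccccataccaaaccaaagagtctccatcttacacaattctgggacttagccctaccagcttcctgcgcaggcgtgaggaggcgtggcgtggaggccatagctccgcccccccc
Abca1 (minus strand, chr4:53159896-53160015): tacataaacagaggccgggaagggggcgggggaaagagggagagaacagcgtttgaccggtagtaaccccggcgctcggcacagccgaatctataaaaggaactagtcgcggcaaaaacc
Nr1h2 (minus strand, chr7:44553966-44554085): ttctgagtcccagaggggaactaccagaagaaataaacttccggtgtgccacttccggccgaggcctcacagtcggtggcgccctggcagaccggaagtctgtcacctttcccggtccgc
Of the 29 genes, 23 have a promoter in the RefSeq table. The 6 others are Stard4, Fdps, Sqle, Abcg1, Fdft1 and Npc1. CCAAT, searched on both strands in the 250 bases before the start, was in 18 of the 30 windows of these genes (60%), against 33.8% of all 32851 windows. Mvk held 5 copies, and Msmo1, Hsd17b7, Insig2 and Mylip held 3 each, while Acat2, Scap, Abca1, Nr1h2 and Nr1h3 held none. The sterol regulatory element in the form TCACNCCAC was in 0 of the 30 windows (1.05% of all windows), and the cAMP response element TGACGTCA also in 0 (1.55% of all windows). Only these exact letters were searched, so other forms of the elements, and the 6 genes without a promoter, were not covered. Letters this rare over all windows would seldom be met in 30, so their absence says little. These letters are descriptions of the windows only.

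Levels in TPM can be compared between genes. With saline, the level was highest for Insig2, which holds SCAP in the endoplasmic reticulum, at 651 and 474 TPM. Next came Npc2, a lysosomal sterol carrier, with a mean of 205 ± 16.1 TPM (SD, n = 2), and Nr1h2, which encodes LXR beta, with 112 ± 17 TPM (SD, n = 2). Insig1 (108 TPM) and the enzymes Fdps (94.4 TPM), Ebp (72.1 TPM) and Msmo1 (65.6 TPM) followed. The lowest mean saline levels were those of Tm7sf2 (8.37 TPM), Mylip (11.4 TPM) and Hsd17b7 (12.4 TPM). Nr1h2 and Insig1 were neighbours whose saline libraries overlapped, and so were Sqle and Srebf2, both with a mean of 26.4 TPM. Summed over the 17 enzymes, the libraries held 603 and 562 TPM with saline, 616 and 602 with BAFF, 619.8 and 588 with LPS, 519 and 524 with norepinephrine, and 409 and 409 in the libraries labelled APRIL. The enzyme sum was thus lower with norepinephrine than in any saline, BAFF or LPS library, and lowest in the libraries labelled APRIL.

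**Figure D1:**
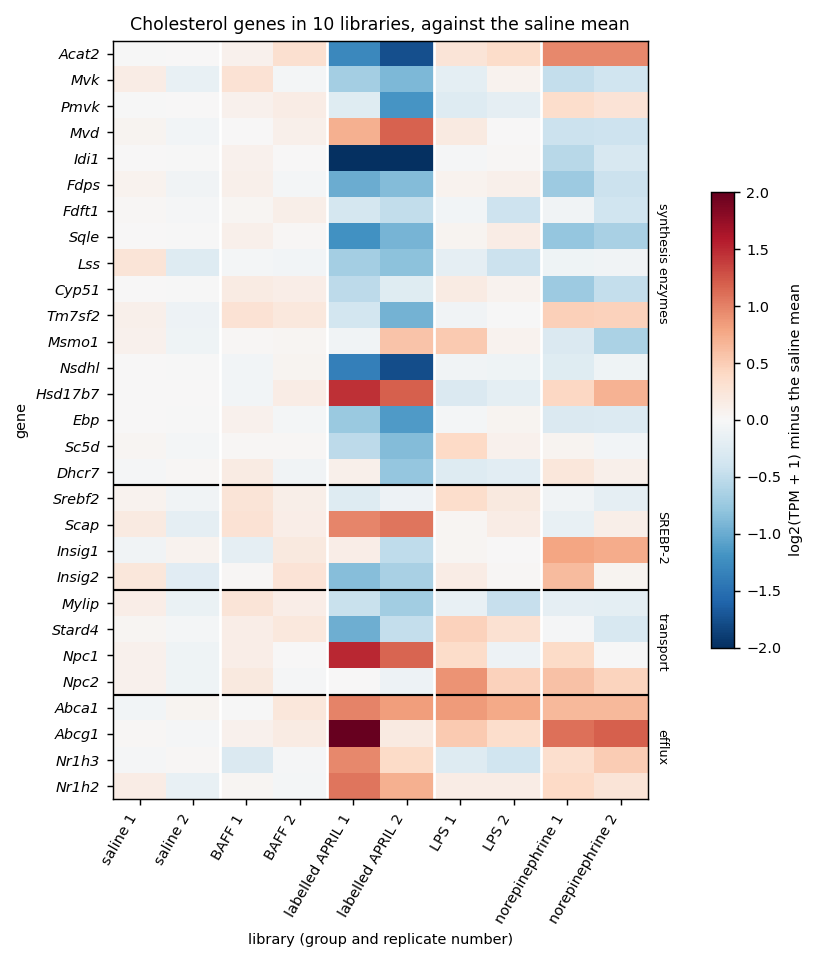
Levels of the 29 genes (rows, by role) in the 10 libraries (columns), each as log2(TPM + 1) minus the saline mean of that gene, with red above and blue below saline and colours saturating at 2 log2 units. The norepinephrine columns are red for the efflux genes, Acat2 and Insig1 and blue for Sqle, Cyp51 and Fdps; the columns labelled APRIL are mostly blue above and red below.

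Differences were tested with limma on log2(TPM + 1), and a gene was called where its p, adjusted over all 14166 genes by the Benjamini-Hochberg method, was under 0.05. A difference on this scale understates the change of genes with low TPM. Over the 5 groups together, the limma F test called 24 of the 29 genes, against 60.4% of all genes tested. The exceptions were Fdft1, Abcg1, Pmvk, Msmo1 and Dhcr7. Over the 4 groups without the libraries labelled APRIL it called 12 of the 29, or 41.4%, against 12% of all genes. These 12 were Acat2, Pmvk, Mvd, Fdps, Sqle, Cyp51, Tm7sf2, Hsd17b7, Insig1, Abca1, Abcg1 and Nr1h3.

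Norepinephrine, the sympathetic transmitter that drives lipolysis in fat cells, went with higher Acat2 and, once the libraries labelled APRIL were left out, with higher Abca1, Abcg1, Insig1 and Tm7sf2 and lower Sqle, Cyp51 and Fdps. In the fit of all 10 libraries Acat2 alone of the 29 genes was called against saline, or 3.45%, against 0.699% of all genes (0.614% higher and 0.0847% lower). By the unadjusted p, at 0.05, 7 of the 29 were higher and 6 lower, against 17.6% of all genes in either direction. Without the libraries labelled APRIL, 8 of the 29 were called, 5 higher and 3 lower, or 27.6%, against 5.95% of all genes (4.87% higher and 1.08% lower). The fit without these libraries was not repeated with a further library left out or with replicate number taken into account. The differences themselves were the same in both fits; the SE of Abcg1 was 0.09 without the libraries labelled APRIL in place of 0.47, whereas that of Fdps was 0.12 in both. The adipocyte marker sum was 14115 and 14544 TPM with norepinephrine against 7545 and 8700.1 with saline. Its largest part was Fabp4, at 11391 and 11802 TPM against 5452 and 6287. Of the 7 markers 5 had higher values and 2, Adipoq and Cfd, slightly lower ones. The smooth muscle marker sum was lower with norepinephrine, at 862 and 998 TPM against 1460.1 and 1545. Of the 7 adipocyte markers 2 were called higher, and of the 4 smooth muscle markers Acta2 was called lower, only in the fit without the libraries labelled APRIL. The part of these markers in the results was not tested.

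Acat2 (ENSMUSG00000023832, mm10 chr17:12942890-12960747, minus strand) encodes the cytosolic thiolase that joins acetyl-CoA units at the head of the pathway. It stood at 32.3 and 33.0 TPM with saline, 34.7 and 41.2 with BAFF, 39.4 and 42.3 with LPS, 64.6 and 64.7 with norepinephrine, and 12.7 and 8.98 in the libraries labelled APRIL. Both norepinephrine libraries were above every other library, and both labelled APRIL were below. Against saline the difference with norepinephrine was 0.96 ± 0.16 (log2, SE; limma adjusted p = 0.0476, and 0.00801 without the libraries labelled APRIL). The call in the fit of all 10 was lost when any 1 of the 4 compared libraries was left out, with adjusted p from limma of 0.245 without saline 1, 0.266 without saline 2, 0.236 without norepinephrine 1 and 0.16 without norepinephrine 2. Acat2 shares 97.7% of 1477 bases with its neighbour Acat3, which stood at 1.46 and 2.48 TPM with saline and 8.57 and 10.1 with norepinephrine. Reads of this pair may be divided unequally, but their sum was likewise higher, at 73.2 and 74.8 TPM against 33.7 and 35.5 TPM. Acat2 also shares 98.7% of 445 bases with Tcp1, which stood at 218 and 242 TPM with saline and 219.6 and 227 with norepinephrine. How reads of Acat2 and Tcp1 were divided was not tested. The promoter stretch of Acat2 printed above holds no CCAAT box.

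Further down the pathway, squalene epoxidase (Sqle, ENSMUSG00000022351, mm10 chr15:59315077-59331192, plus strand) adds the oxygen to squalene. Sqle stood at 26.7 and 26.2 TPM with saline, 28.4 and 26.9 with BAFF, 27.4 and 29.5 with LPS, 15.0 and 16.5 with norepinephrine, and 10.8 and 13.4 in the libraries labelled APRIL. Both norepinephrine libraries lay below all saline, BAFF and LPS libraries. The difference from saline was -0.71 ± 0.12 (log2, SE), with a limma adjusted p of 0.0527, and of 0.0124 without the libraries labelled APRIL. Cyp51, which removes a methyl group from lanosterol, stood at 40.2 and 40.1 TPM with saline, 45 and 44.2 with BAFF, 45 and 42.2 with LPS, 24.0 and 28.7 with norepinephrine, and 27.7 and 33.7 in the libraries labelled APRIL. Norepinephrine and APRIL-labelled libraries overlapped with each other and lay below the other 6. Its difference with norepinephrine was -0.59 ± 0.13 (log2, SE; limma adjusted p = 0.0762, and 0.0259 without the libraries labelled APRIL).

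Farnesyl diphosphate synthase (Fdps) makes the last isoprenoid shared by sterols and prenylated proteins. Its levels were 98.8 and 89.9 TPM with saline, 101 and 91.8 with BAFF, 99.1 and 101 with LPS, 56.8 and 69.8 with norepinephrine, and 47.1 and 51.0 in the libraries labelled APRIL. The 4 low libraries did not overlap with the other 6. The norepinephrine difference was -0.57 ± 0.12 (log2, SE; limma adjusted p = 0.0775, and 0.0426 without the libraries labelled APRIL). The gene model Gm43738 shares 1124 exonic bases with Fdps on the same strand, so the value of Fdps also depends on how shared reads were assigned. Idi1, which isomerises isopentenyl diphosphate, stood at 23.3 and 23.2 TPM with saline, 24.6 and 23.3 with BAFF, 22.9 and 23.6 with LPS, 15.5 and 18.4 with norepinephrine, and 3.91 and 4.83 in the libraries labelled APRIL. It was lower with norepinephrine than with saline in both libraries, by -0.44 ± 0.12 (log2, SE), but did not pass the test (limma adjusted p = 0.144, and 0.0549 without the libraries labelled APRIL). A processed pseudogene, Gm13502, is identical to Idi1 over 684 bases and varied from 0.000927 to 21.4 TPM between libraries, so the split of reads between them is uncertain; the 2 together differed by -0.29 with norepinephrine and by 0.5 with LPS (log2).

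The enzymes did not all differ in 1 direction with norepinephrine: of the 17, 5 had positive and 12 negative differences, with a median of -0.24, against 0.04 over all genes tested. Tm7sf2, a sterol reductase, stood at 8.99 and 7.75 TPM with saline, 10.4 and 9.79 with BAFF, 7.88 and 8.25 with LPS, 12 and 11.9 with norepinephrine, and 6.28 and 3.85 in the libraries labelled APRIL. Norepinephrine gave its highest values, by 0.47 ± 0.19 against saline (log2, SE; limma adjusted p = 0.248, and 0.0474 without the libraries labelled APRIL). Tm7sf2 shares 532 exonic bases with Vps51 on the same strand. Hsd17b7, which reduces the sterol ketone, stood at 12.4 and 12.4 TPM with saline, 11.9 and 13.9 with BAFF, 10 and 10.7 with LPS, 16.8 and 20.6 with norepinephrine, and 35.9 and 29.6 in the libraries labelled APRIL. Its norepinephrine libraries were above all saline, BAFF and LPS libraries, by 0.56 ± 0.14 against saline (log2, SE; limma adjusted p = 0.117, and 0.0559 without the libraries labelled APRIL). Pmvk, which phosphorylates phosphomevalonate, had 28.3 and 28.8 TPM with saline, 30.5 and 31.6 with BAFF, 23.6 and 25.2 with LPS, 36.8 and 34.6 with norepinephrine, and 24.1 and 12.1 in the libraries labelled APRIL. Its norepinephrine values were the highest of the 10, and the difference of 0.31 from saline was not called (limma adjusted p = 0.569).

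Among the genes that control SREBP-2, Insig1 stood at 103 and 113 TPM with saline, 95.1 and 123 with BAFF, 111 and 108 with LPS, 188 and 181 with norepinephrine, and 118 and 75.8 in the libraries labelled APRIL. Both norepinephrine libraries were above the other 8. The difference from saline was 0.77 ± 0.21 (log2, SE; limma adjusted p = 0.127, and 0.0259 without the libraries labelled APRIL). Insig2, with the same function, had 651 and 474 TPM with saline, 564 and 672 with BAFF, 615 and 563 with LPS, 863 and 575 with norepinephrine, and 309 and 353 in the libraries labelled APRIL. Its saline and norepinephrine libraries overlapped. Srebf2 itself, which encodes SREBP-2, had 27.8 and 24.9 TPM with saline, 31.7 and 28.7 with BAFF, 33.8 and 30.4 with LPS, 24.9 and 23.0 with norepinephrine, and 21.9 and 24.4 in the libraries labelled APRIL. Saline and norepinephrine touched at 24.9 TPM, and the difference was -0.13 ± 0.12 (log2, SE; limma adjusted p = 0.602).

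On the efflux side, Abca1 (ENSMUSG00000015243, mm10 chr4:53030787-53159895, minus strand) passes cholesterol to lipid-poor apolipoprotein. Abca1 stood at 33.4 and 35.8 TPM with saline, 34.4 and 40.8 with BAFF, 63.3 and 59.3 with LPS, 54.9 and 54.9 with norepinephrine, and 69.6 and 62.6 in the libraries labelled APRIL. The 6 libraries with LPS, with norepinephrine or labelled APRIL did not overlap with the 4 of saline and BAFF. With norepinephrine the difference from saline was 0.65 ± 0.11 (log2, SE; limma adjusted p = 0.0546, and 0.0221 without the libraries labelled APRIL). Abcg1, which passes cholesterol to mature lipoprotein particles, had 20.4 and 19.6 TPM with saline, 21.3 and 22.6 with BAFF, 29.2 and 25.7 with LPS, 44.1 and 47.2 with norepinephrine, and 83.2 and 22.9 in the libraries labelled APRIL. The libraries labelled APRIL differed from each other more than any other pair. Norepinephrine was higher than saline by 1.15 ± 0.47 in the fit of all 10 libraries (limma adjusted p = 0.264) and by 1.15 ± 0.09 without the libraries labelled APRIL (log2, SE; limma adjusted p = 0.00447).

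Nr1h3 encodes LXR alpha, the receptor form prominent in fat and macrophages. Its levels were 27.7 and 28.5 TPM with saline, 22.7 and 27.5 with BAFF, 23.3 and 21.0 with LPS, 35.7 and 40.4 with norepinephrine, and 55.8 and 37.0 in the libraries labelled APRIL. Norepinephrine lay above saline and LPS lay below it in both libraries, and neither passed the test (limma adjusted p = 0.302 and 0.467). Nr1h2 stood at 124 and 100.2 TPM with saline, 114 and 108 with BAFF, 123 and 124 with LPS, 148 and 133 with norepinephrine, and 235 and 184 in the libraries labelled APRIL. The norepinephrine difference was 0.33 ± 0.15 (log2, SE; limma adjusted p = 0.302).

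**Figure D2:**
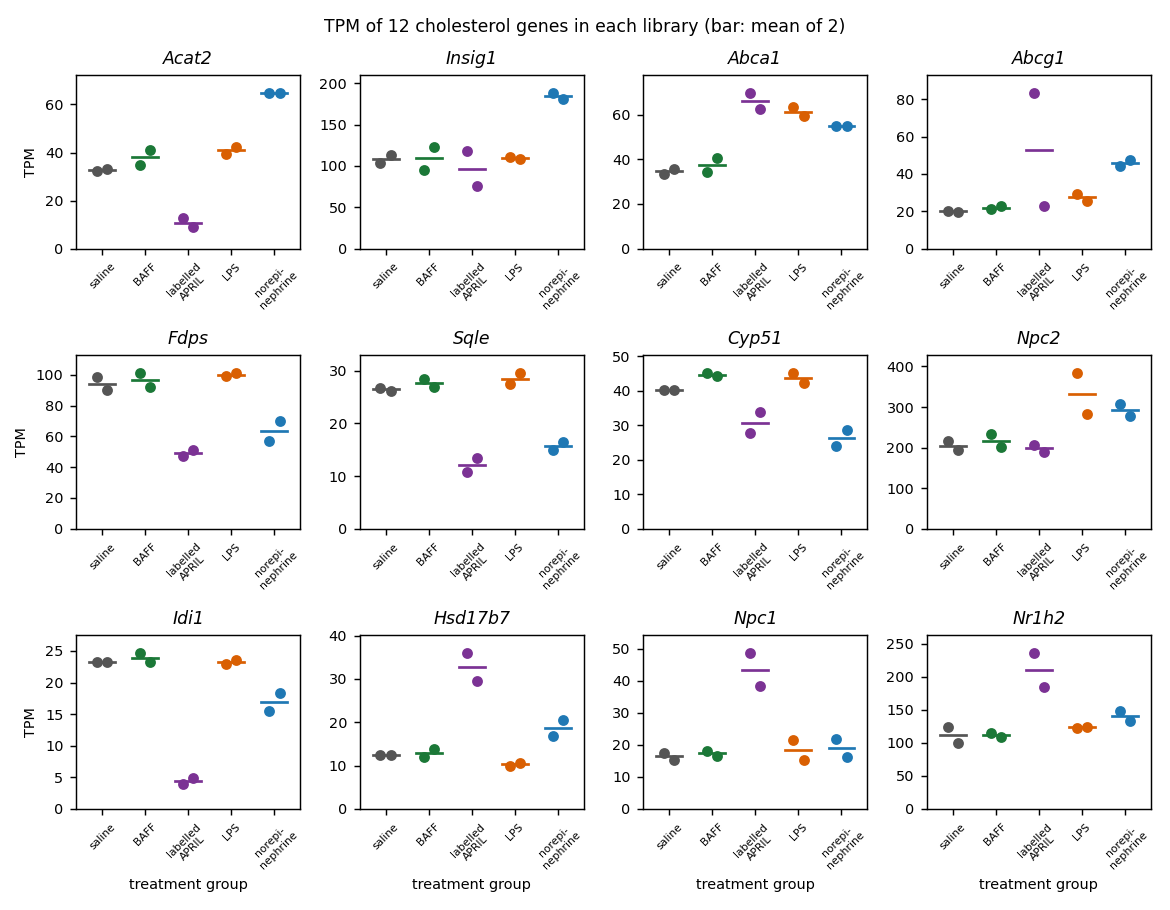
TPM (y axis, from 0) of 12 of the genes in each library, by treatment group, with bars at the mean of the 2 libraries. Norepinephrine gives the highest Acat2 (64.6 and 64.7 TPM) and Insig1 (188 and 181 TPM) and low Sqle, Cyp51 and Fdps, while the libraries labelled APRIL split widely for Abcg1 (83.2 and 22.9 TPM).

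With LPS, a ligand of Toll-like receptor 4 that provokes inflammatory signalling, Abca1 was the 1 of these genes called higher in the fit of all 10 libraries, joined by Abcg1 without the libraries labelled APRIL, and 0 of the 17 synthesis enzymes were called in either fit. Of the 29 genes 1 was called, or 3.45%, against 3.8% of all genes (2.87% higher and 0.932% lower), so the share was close to the background. By the unadjusted p, at 0.05, 3 were higher and 0 lower, against 16.5% of all genes. The Abca1 difference was 0.81 ± 0.11 (log2, SE), a 1.75-fold rise, with a limma adjusted p of 0.00907. It was lost without saline 1 (limma adjusted p = 0.0814), without saline 2 (0.0714) and without LPS 1 (0.073), and held without LPS 2 (0.0332). Without the libraries labelled APRIL, Abca1 (limma adjusted p = 0.00851) and Abcg1 (0.44 ± 0.09 log2, SE; adjusted p = 0.0429) were called, 2 of 29 or 6.9%, against 6.51% of all genes (4.32% higher and 2.19% lower). Markers of several cell types moved with LPS, and their part in the Abca1 result was not tested. The macrophage marker sum was 1847 and 499 TPM with LPS and 1484 and 508 with saline. Of 14 tested macrophage markers 0 were called, and 6 had higher and 8 lower values. The fit did not take replicate number into account, so the gap between replicates 1 and 2 counted as spread. The SE was 0.82 (log2) for both Adgre1 and Cybb, so the lack of calls does not show that these markers were unchanged. Cd14 (98.1 and 40.6 against 25 and 12.5 TPM), Itgam, Cybb and Fcgr1 were higher in both LPS libraries than in either saline library. C1qa (26.9 and 2.75 against 47.8 and 10.9 TPM), C1qb and C1qc had lower values. The adipocyte marker sum was 5021 and 5570.1 TPM against 7545 and 8700.1 with saline, with all 7 markers at lower values, 0 called in the fit of all 10 libraries and 3 without those labelled APRIL. Of 6 tested fibroblast and progenitor markers, 3 were called higher, Dcn (1184 and 682 against 173 and 128 TPM), Pdgfra and Pi16. Col1a1 and Col3a1 had slightly lower values. The sum over the fibroblast and progenitor list was 9339 and 8613 TPM with LPS against 9415 and 8207 with saline. Of 4 smooth muscle markers 1 was called lower.

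Among the 4 transport genes, 3 had values above saline with LPS and Mylip was below, with 0 called; all 4 SREBP-2 control genes had values above saline, by 0.02 to 0.27, with 0 called. Npc2, which hands lysosomal cholesterol to NPC1, stood at 216 and 193 TPM with saline, 233 and 200.3 with BAFF, 383 and 282 with LPS, 307 and 279 with norepinephrine, and 206 and 189.8 in the libraries labelled APRIL. All 4 libraries with LPS or norepinephrine were above the other 6. The LPS difference was 0.68 ± 0.16 (log2, SE; limma adjusted p = 0.0635). LPS 1, the higher of the pair, was also the library with most macrophage marker RNA, at 1847 TPM. LPS 2 held 499 TPM of this RNA and saline 1 held 1484 TPM, with Npc2 at 282 and 216 TPM. The part of macrophage RNA in the Npc2 result was not tested. Stard4, a cytosolic sterol carrier, had 13.3 and 12.6 TPM with saline, 14.3 and 15.1 with BAFF, 18.2 and 16.3 with LPS, 12.7 and 10.2 with norepinephrine, and 6.06 and 9.04 in the libraries labelled APRIL. LPS gave its highest values, by 0.39 ± 0.18 against saline (log2, SE; limma adjusted p = 0.339). The 17 enzymes ranged from -0.3 to 0.31 with LPS, with a median of 0 against -0.01 over all genes tested, and 0 of them were called by limma or stood under an unadjusted p of 0.05. Sums with near copies lay above this range, at 0.44 for Acat2 with Acat3 and 0.5 for Idi1 with Gm13502 (log2). These sums were not tested.

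Set side by side without the shared saline libraries, LPS and norepinephrine differed in 5 of the 29 genes, or 17.2%, against 7.81% of all genes (3.62% higher and 4.19% lower with LPS). Sqle, Cyp51 and Fdps were higher with LPS, and Hsd17b7 and Acat2 were higher with norepinephrine. Sqle differed by 0.82 ± 0.12 (log2, SE; limma adjusted p = 0.0103), Cyp51 by 0.71 ± 0.13 (0.0182) and Fdps by 0.66 ± 0.12 (0.0211). Hsd17b7 differed by -0.79 ± 0.14 (limma adjusted p = 0.019) and Acat2 by -0.65 ± 0.16 (0.0463). Abca1, high with both agents, differed by 0.15, with a 95% interval from -0.11 to 0.42 (limma adjusted p = 0.446). The count fell to 1 without LPS 1, 0 without LPS 2, 0 without norepinephrine 1 and 3 without norepinephrine 2.

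Without the libraries labelled APRIL, 16 of the 29 genes were called between LPS and norepinephrine, 9 higher and 7 lower with LPS, or 55.2%, against 15.4% of all genes (5.6% higher and 9.76% lower). This count, too, was not recomputed with a further library left out or with replicate number taken into account. The called genes that had not passed in the fit of all 10 were Pmvk, Mvd, Idi1, Tm7sf2, Msmo1, Ebp, Srebf2, Insig1, Stard4, Abcg1 and Nr1h3. Of these, Nr1h3 (limma adjusted p = 0.00984), Abcg1 (0.00522) and Insig1 (0.0125) were lower with LPS, and Msmo1 (0.0352), Stard4 (0.0283) and Srebf2 (0.045) were higher. Msmo1, which oxidises a methyl group of the sterol ring, had 69.4 and 61.9 TPM with saline, 67.0 and 67.5 with BAFF, 94.3 and 69.0 with LPS, 53.4 and 41.8 with norepinephrine, and 62.4 and 97.9 in the libraries labelled APRIL. Its norepinephrine libraries were the 2 lowest of the 10. Adipocyte marker RNA also differed between these groups, at 5021 and 5570.1 TPM with LPS against 14115 and 14544 with norepinephrine. Of 6 tested fibroblast and progenitor markers 4 were called higher with LPS, and the part of these markers in these calls was not tested.

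BAFF left these genes at levels that the test did not separate from saline. Of the 29 genes 0 were called by limma, against 0.0141% of all genes, and 0 stood under an unadjusted p of 0.05, against 2.84% of all genes. The largest difference in size was 0.25, for Tm7sf2, which stood at 10.4 and 9.79 TPM with BAFF and 8.99 and 7.75 TPM with saline. The 95% intervals of 28 of the 29 genes lay within a log2 difference of 1 in either direction; that of Abcg1, from -0.97 to 1.23, did not. Over the 29 genes the median difference with BAFF was 0.08, with 25 positive and 4 negative values. Over all 14166 genes tested the median was 0.11, with 11717 positive and 2434 negative values.

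The libraries labelled APRIL differed from saline in most of these genes, as they did in most of the genes tested. Of the 29, 23 were called, 7 higher and 16 lower, or 79.3%, against 58.1% of all genes (33.1% higher and 25% lower). By the unadjusted p, at 0.05, 8 were higher and 16 lower, against 62.7% of all genes. Among the enzymes 13 of 17 were lower and 2 higher, and among the efflux genes 3 of 4 were higher and 0 lower. The count fell to 15 without saline 1 and was 19 to 21 without any other of the 4 libraries. Marker sums differed as well: fibroblast and progenitor markers summed to 1701 and 2123 TPM against 9415 and 8207 with saline, adipocyte markers to 4823 and 2118 TPM against 7545 and 8700.1, and smooth muscle markers to 369.9 and 609 TPM against 1460.1 and 1545, and their part in these differences was not tested. Against BAFF, a comparison that does not use saline, 24 of the 29 were called, 17 higher and 7 lower with BAFF, or 82.8%, against 57.3% of all genes (28.3% higher and 29% lower); an unadjusted p under 0.05 gave 17 and 7, against 62.2% of all genes.

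Idi1 (ENSMUSG00000058258, mm10 chr13:8885501-8892451, plus strand) was lowest against saline, by -2.18 ± 0.12 (log2, SE; limma adjusted p = 1.42e-05), and all 8 other libraries were at 15.5 TPM or more. Acat2 (-1.53 ± 0.16), Sqle (-1.07 ± 0.12) and Fdps (-0.93 ± 0.12) were lower too, with limma adjusted p of 0.000137, 0.00021 and 0.000446. Nsdhl, an enzyme of sterol demethylation, had 17.7 and 17.6 TPM with saline, 17.0 and 18.4 with BAFF, 16.7 and 16.5 with LPS, 14.7 and 16.5 with norepinephrine, and 6.26 and 4.46 in the libraries labelled APRIL. It was steady across the 8 other libraries and lower in these by -1.57 ± 0.15 (log2, SE; limma adjusted p = 8.83e-05). Ebp, the sterol isomerase, had 72.8 and 71.4 TPM with saline, 76.4 and 70.5 with BAFF, 70.1 and 75.2 with LPS, 58.7 and 59.3 with norepinephrine, and 42.6 and 32.2 in the libraries labelled APRIL. The difference was -0.94 ± 0.13 (log2, SE; limma adjusted p = 0.000633), and norepinephrine lay between.

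Mevalonate kinase (Mvk), whose printed promoter stretch holds 4 CCAAT boxes, had 26.9 and 21.5 TPM with saline, 29.6 and 23.5 with BAFF, 20.8 and 25.3 with LPS, 17.0 and 18 with norepinephrine, and 14.6 and 12.5 in the libraries labelled APRIL. Both APRIL-labelled values were below the other 8 (limma adjusted p = 0.00462). Lanosterol synthase (Lss), which closes the sterol rings, had 43.8 and 30 TPM with saline, 35.1 and 34.9 with BAFF, 31.9 and 26.7 with LPS, 34.0 and 34.4 with norepinephrine, and 22.2 and 20.1 in the libraries labelled APRIL. Its saline pair was wide, and the APRIL-labelled pair was below all others (limma adjusted p = 0.00695). Sc5d, a sterol desaturase, had 39.2 and 37.1 TPM with saline, 38.7 and 38.8 with BAFF, 50.8 and 40.6 with LPS, 39.5 and 36.6 with norepinephrine, and 26.2 and 20.5 in the libraries labelled APRIL. The APRIL-labelled libraries were again the lowest (limma adjusted p = 0.00454). Squalene synthase (Fdft1) had 30.5 and 29.7 TPM with saline, 31.0 and 32.8 with BAFF, 29.0 and 22.4 with LPS, 28.5 and 22.6 with norepinephrine, and 23.4 and 21.2 in the libraries labelled APRIL. Its 4 saline and BAFF libraries were above the other 6, the APRIL-labelled call was near the threshold (limma adjusted p = 0.0481), and 774 of its exonic bases lie opposite Ctsb. Dhcr7, the last reductase of one branch, ranged from 10.3 to 21.5 TPM, with both extremes outside saline, and was called in no comparison.

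A pair of enzymes went the other way in the libraries labelled APRIL. Hsd17b7 was higher by 1.33 ± 0.14 (log2, SE; limma adjusted p = 0.000169). Mvd, which decarboxylates mevalonate diphosphate, had 14.3 and 13.3 TPM with saline, 13.8 and 14.9 with BAFF, 15.8 and 13.9 with LPS, 10 and 10.1 with norepinephrine, and 23.1 and 32.4 in the libraries labelled APRIL. It was highest in these and lowest with norepinephrine, with an APRIL-labelled difference of 0.94 ± 0.16 (log2, SE; limma adjusted p = 0.00152). Both genes have CCAAT boxes before their start, 3 for Hsd17b7 and 2 for Mvd, as do most of the enzymes that were lower.

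The control, transport and efflux genes in these libraries were mixed. Scap, the escort of SREBP-2, had 39.4 and 30.2 TPM with saline, 42.2 and 37.9 with BAFF, 35.3 and 38.3 with LPS, 31.2 and 37.3 with norepinephrine, and 68.9 and 73.8 in the libraries labelled APRIL. It was higher by 1.02 ± 0.15 (log2, SE; limma adjusted p = 0.000756), whereas Insig2 was lower by -0.75 ± 0.22 (adjusted p = 0.021). Npc1, the membrane partner of NPC2 in the lysosome, had 17.5 and 15.4 TPM with saline, 18.1 and 16.6 with BAFF, 21.5 and 15.2 with LPS, 21.7 and 16.3 with norepinephrine, and 48.5 and 38.2 in the libraries labelled APRIL. The other 8 libraries overlapped, and the APRIL-labelled pair was higher by 1.34 ± 0.2 (log2, SE; limma adjusted p = 0.000918), while Npc2 differed by only -0.05 (adjusted p = 0.815). Mylip, a ubiquitin ligase that sends lipoprotein receptors for degradation and is itself raised by LXR, had 12.5 and 10.3 TPM with saline, 13.7 and 12.5 with BAFF, 10.2 and 8.02 with LPS, 9.93 and 9.79 with norepinephrine, and 8.08 and 6.66 in the libraries labelled APRIL. Its values in the libraries labelled APRIL were the lowest of the 10 except for an LPS library at 8.02 TPM, and were called lower than saline (limma adjusted p = 0.0152). Abca1 (0.91 ± 0.11 log2, SE; limma adjusted p = 0.000319), Nr1h2 (0.89 ± 0.15; 0.00142) and Nr1h3 (0.68 ± 0.19; 0.0168) were higher, and Abcg1 was not called (adjusted p = 0.0794), being high in 1 library of the pair.

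**Figure D3:**
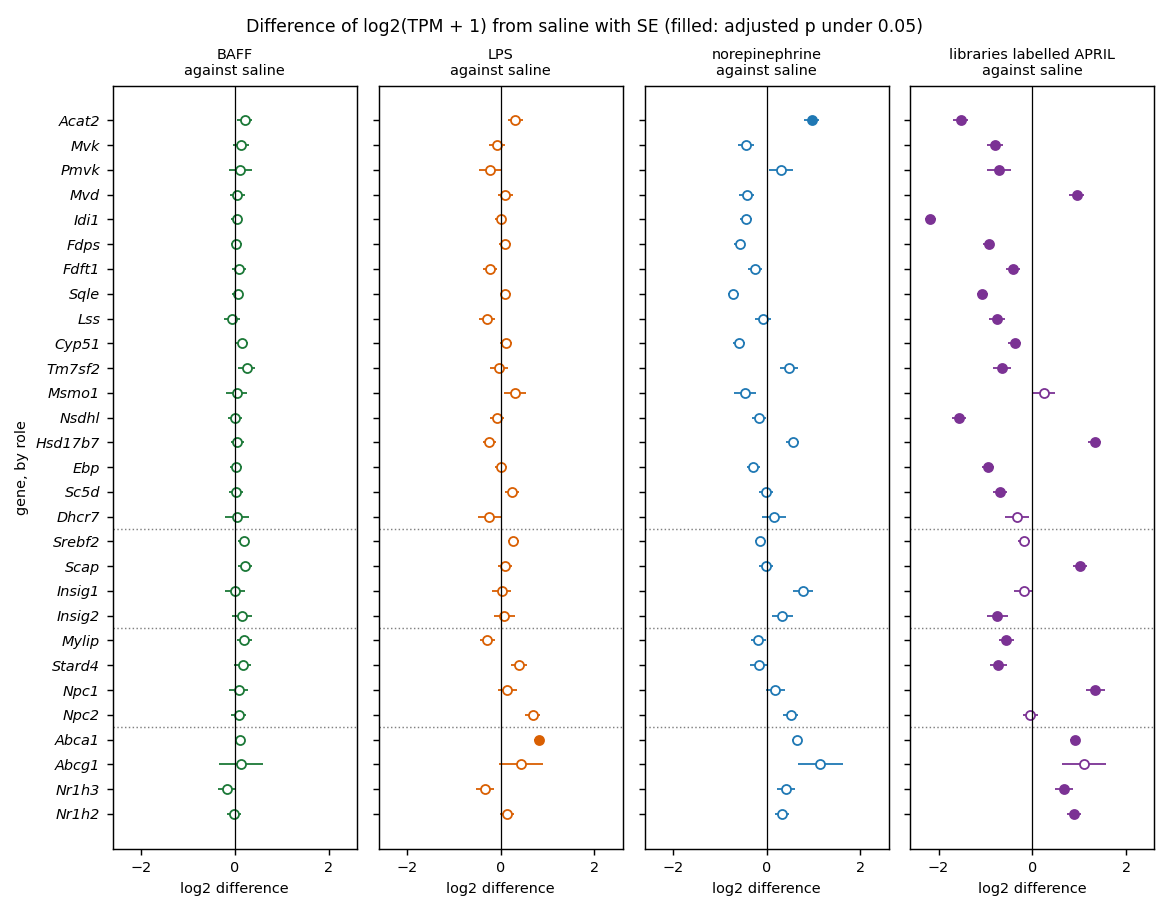
Difference of log2(TPM + 1) from saline for each of the 29 genes (rows, by role), with bars of 1 SE from the limma fit of all 10 libraries and filled points where the adjusted p is under 0.05. BAFF has 0 filled points, LPS 1 (Abca1), norepinephrine 1 (Acat2) and the libraries labelled APRIL 23; the 4 panels share the saline libraries.

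The 25 synthesis, control and transport genes and the 4 efflux genes were set against each other by their medians. The 25 include Insig1 and Insig2, which hold SCAP back, and Mylip, which sends lipoprotein receptors for degradation. With norepinephrine the median difference from saline was -0.13 on the synthesis and uptake side and 0.54 on the efflux side, against 0.04 over all genes tested. With LPS the medians were 0.08 and 0.29, against -0.01. Their difference of -0.21 became -0.06 when Mylip was counted on the efflux side. The efflux genes were spread with LPS, at 0.81 for Abca1, 0.44 for Abcg1, 0.14 for Nr1h2 and -0.33 for Nr1h3. For BAFF the medians were 0.08 and 0.05, against 0.11, and for the libraries labelled APRIL -0.65 and 0.9, against 0.08. Measured for each library from the saline mean, the synthesis median minus the efflux median was -0.6 and -0.67 with norepinephrine, -0.3 and -0.23 with LPS, 0.08 and 0.04 with BAFF, and -1.47 and -1.24 in the libraries labelled APRIL, against 0.04 and -0.04 for saline. The norepinephrine, LPS and APRIL-labelled pairs lay below both saline libraries, and the BAFF libraries were at or above the higher of them. These comparisons share the saline libraries. Between LPS and norepinephrine, which do not share them with each other, the synthesis median was 0.1 and the efflux median -0.45, so the synthesis side was relatively higher with LPS. No p-value is given for these medians.

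**Figure D4:**
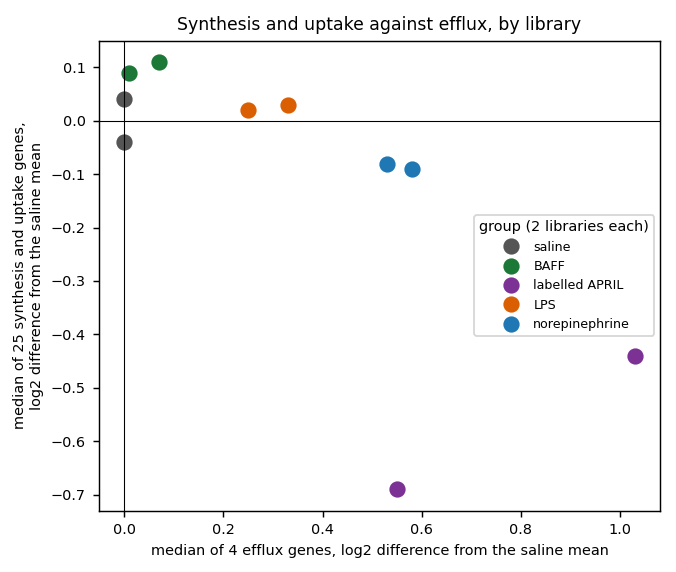
Each point is a library: the median log2 difference from the saline mean of the 25 synthesis and uptake genes (y axis) against that of the 4 efflux genes (x axis). Saline and BAFF lie near the origin, LPS lies to the right at 0.25 and 0.33, norepinephrine at 0.53 and 0.58 and slightly below 0, and the libraries labelled APRIL are the lowest at -0.44 and -0.69.

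A further 37 genes of sterol transport, oxysterol synthesis and SREBP processing, none of them among the 29, gave the surroundings of the pathway, and 36 of them were tested. With LPS 1 was called higher and 0 lower, against 3.8% of all genes. It was Ch25h, which makes an oxysterol that blocks SREBP processing and is induced in inflammation: 5.79 and 2.66 TPM with saline, 5.19 and 2.69 with BAFF, 51.0 and 30.4 with LPS, 3.6 and 3.27 with norepinephrine, and 9.89 and 3.19 in the libraries labelled APRIL. Both LPS libraries were far above the other 8, by 3.02 ± 0.5 against saline (log2, SE; limma adjusted p = 0.0188). With norepinephrine and with BAFF, limma called 0 of the 36 in either direction; at an unadjusted p under 0.05 there were 4 higher and 2 lower with norepinephrine, against 17.6% of all genes, and 2 higher and 0 lower with BAFF, against 2.84%. Without the libraries labelled APRIL, 4 of the 36 were called higher and 0 lower with norepinephrine, against 5.95% of all genes: Por, the electron donor of sterol cytochromes P450 (limma adjusted p = 0.013), Gramd1a (0.029), Lpcat3 (0.0376) and Srebf1 (0.0471). In the same fit 2 were called higher and 1 lower with LPS, against 6.51% of all genes: Ch25h (limma adjusted p = 0.0104) and Abca7 (0.0469) higher and Cyp27a1 (0.0438) lower. BAFF had 0 called in that fit. Between LPS and norepinephrine, Cyp7b1, which breaks down oxysterols, was higher with LPS (35.1 and 36.2 against 13.3 and 10 TPM; 1.55 ± 0.19 log2, SE; limma adjusted p = 0.00509). Ch25h was higher with LPS as well (limma adjusted p = 0.0122), and the lipoprotein receptor Vldlr was lower (25.6 and 22.1 against 45.5 and 39.9 TPM; adjusted p = 0.0114). In the libraries labelled APRIL 15 of the 36 were higher and 10 lower than saline, against 33.1% and 25% of all genes, with a median of 0.26 against 0.08 over all genes. Stard3, a late-endosomal sterol carrier, went from 11.7 and 10.1 TPM with saline to 30.1 and 28.7 TPM there (limma adjusted p = 4.1e-05), and Tmem97, a sterol-regulated membrane protein, from 35.3 and 32.9 TPM to 13.9 and 11.3 TPM (8.45e-05).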

How the data were processed

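The 10 libraries were quantified by the authors as TPM, per the file headers. The submitters' processing notes name kallisto (version not given there) and the mm10 genome; how transcripts were summed to genes is not given in the sources used here. Listed TPM sum to 953553 to 964726 per library. Gene symbols and coordinates are those of GENCODE mouse M21 (27458 of 28987 IDs matched). The 14166 genes at 1 TPM or more in 2 libraries were tested on log2(TPM + 1). The tool was limma (version 3.58.1, under R 4.3.3) with its trend option; a single fit of the 5 groups used all 10 libraries, had 5 residual degrees of freedom and shared 1 spread over the groups. P-values were adjusted over all tested genes by the Benjamini-Hochberg method, at 0.05. Every adjusted p is from limma. In data simulated for LPS against saline, the fit called 26.8% of 1.5-fold, 62% of 2-fold and 89.6% of 4-fold changes. Of its calls there 4.9% were false. The simulation changed only a small share of genes, all at higher levels and in the LPS group alone, and drew every library independently. Rates in the real data may differ. A gene that was not called may thus still differ.

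The genes and lists were chosen with earlier results of these data known. Members past 0.05 in any comparison, and the 2 of smallest p in each role, were given by library, and at most 4 other sterol genes per comparison were eligible to be named, by smallest p. The rest are described in less detail. Promoters are RefSeq windows (GRCm38.p6), and near copies were searched with BLAST 2.17.0 (at least 90% identity over 300 bases). Whether the library kit kept strand is not given in the sources used here, so opposite-strand overlaps cannot be resolved. Figures were drawn with matplotlib 3.10.9.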

Additional observations from a re-analysis of the deposited data

How the results depend on the processing

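Of 142 recomputed counts and medians, 96 kept their value within the limits set and 46 moved; no call among the genes named reversed. Beyond the samples, genes or settings that each alternative removes or changes, the cause was not tested. For LPS against saline the count of called genes was 1; it was 2 with the replicate number as a block, 2 without the libraries labelled APRIL, and 0 to 2 with 1 library left out. For norepinephrine against saline it was 1; it was 2 at a minimum of 5 TPM, 0 without a filter, 0 with pseudocounts of 0.1 and 0.5, 0 without mitochondrially encoded genes, 8 without the libraries labelled APRIL, 2 with the 4 compared libraries alone, and 0 with any 1 library left out. For BAFF it was 0 in every alternative. For the libraries labelled APRIL it was 15 to 21 with 1 library left out, against 23, and 15 of the 23 genes were called with each library left out. For BAFF against the libraries labelled APRIL it was 20 to 25, against 24. For LPS against norepinephrine it was 16 without the libraries labelled APRIL, 3 with the 4 libraries alone and 0 to 3 with 1 left out, against 5. The F test called 12 without the libraries labelled APRIL and 21 to 26 with 1 library left out, against 24.

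The median of the synthesis side minus that of the efflux side also moved. With LPS (-0.21) it was -0.29 for the enzymes alone, -0.06 with Mylip on the efflux side and -0.3 to -0.21 with 1 library left out. With norepinephrine (-0.67) these were -0.77, -0.53 and -0.78 to -0.59. With BAFF (0.02) Mylip gave -0.04 and leaving out 1 library 0.01 to 0.08. For the libraries labelled APRIL (-1.55) leaving out 1 gave -1.54 to -1.24. BAFF against these (1.58) gave 1.69 for the enzymes alone and 1.44 to 1.71 with 1 left out. LPS against norepinephrine (0.55) gave 0.7 for the enzymes, 0.32 with Mylip and 0.57 to 0.63 with 1 left out.

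The labels pair libraries only by number. Over saline, BAFF, LPS and norepinephrine, macrophage marker sums were 1484, 1262, 1847 and 1453 TPM in replicate 1. In replicate 2 they were 508, 590, 499 and 336 TPM. Skeletal muscle marker sums were 8.31, 11.1, 4.65 and 8.7 TPM in replicate 1 and 40.1, 33.2, 35.8 and 59.8 in replicate 2. In the fit without a block, this split is part of the spread of those markers. Deviations of same-numbered libraries correlated at 0.272 to 0.479 among saline, BAFF, LPS and norepinephrine and at -0.108 to 0.0264 with the libraries labelled APRIL. With the number as a block, norepinephrine against saline called 1 gene, Sqle, and not Acat2 (limma adjusted p = 0.0534); LPS called Npc2 and Abca1; LPS against norepinephrine called 4, and the other counts were 0, 23, 24 and 24. A lone library left in a group was assumed to vary like the other groups. Without counts, the limit that depth sets is unknown.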
